A study of Populus ussuriensis with 12 samples.

Results

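The subject is a set of 54 genes whose mean expression in poplar roots was higher with PuHox52 overexpression than in wild type at normal nitrogen (N) and again at low N. PuHox52 is a homeodomain-leucine zipper transcription factor of Populus ussuriensis, and in this species it is known for promoting the formation of adventitious roots. Proteins of this family bind DNA as dimers and act as activators or repressors of other genes. Nitrogen is both a nutrient and a signal for roots, and its shortage is known to shift the expression of genes for N uptake, assimilation and growth. The deposited table names its genes by Potri ID only and 0 IDs were paired with a name here, so members are given by ID and their roles are not stated. Nor does the table say which ID stands for PuHox52 or its transgene, so the overexpressed gene could not be checked.

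RNA was sequenced from roots of clonally propagated in vitro plants of 2 genotypes, wild type and PuHox52-OE, the overexpression plants. Shoot pieces were grown for 6 days on woody plant medium and then kept for 3 weeks on normal-N or low-N medium. This gave 4 groups of 3 libraries, described by the submitters as biological replicates. The labels do not give the promoter of the transgene, how many transgenic lines were used, or whether roots of several plants were pooled.

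Values are FPKM, a gene's fragment count per length of the gene and per size of the library. An ID was tested if 3 or more libraries reached 1 FPKM for it, as was so for 24570 of 34699 IDs. A genotype effect is the overexpression mean minus the wild-type mean of log2(FPKM + 1), and a gene was a member when this effect was at least 0.7 at each N supply. A run of neighbouring IDs, Potri.013G000100 to Potri.013G032200, was left out by the rule. In it 4 further genes passed both thresholds. The members were thus selected on their genotype effects, and these are given below as a description without a test. The sum of a library's fragments is not part of the table. Steps in its low values put the relative depth at 1 to 1.22 in the normal-N libraries and at 0.447 to 0.501 in the low-N libraries, so weakly expressed members were measured less precisely at low N. Across genes, libraries of the same group had a Pearson correlation of 0.976 to 0.996 in log2 values.

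The members differed more between the genotypes at low N than at normal N. Their median genotype effect was 0.87 at normal N, with quartiles of 0.78 and 1.08, and 1.72 at low N, with quartiles of 1.33 and 2.78. Over all 24570 genes the medians were -0.08 and -0.10. The effect was larger at low N in 45 of the 54 members (83.3%), against 51.3% of all tested genes, and in 24 of them by at least 1 on the log2 scale. A larger effect at normal N by that margin was seen in 2 members. Over all tested genes 1595 and 961 lay past that margin in these directions. Effects spread more widely at low N in general, above all on the positive side, and members needed only 0.7 at each. At low N 1063 tested genes had an effect of at least 1, against 63 at normal N. An effect of -1 or less was found in 898 at low N, against 509 at normal N. As a ratio of FPKM means, PuHox52-OE roots exceeded wild type by a median of 2.03-fold at normal N and 5.09-fold at low N, each over the 53 members that were not listed at 0 in wild type. Ratios of at least 2 were reached by 29 members at normal N and by 53 at low N, where 12 reached 10.

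**Figure D1:**
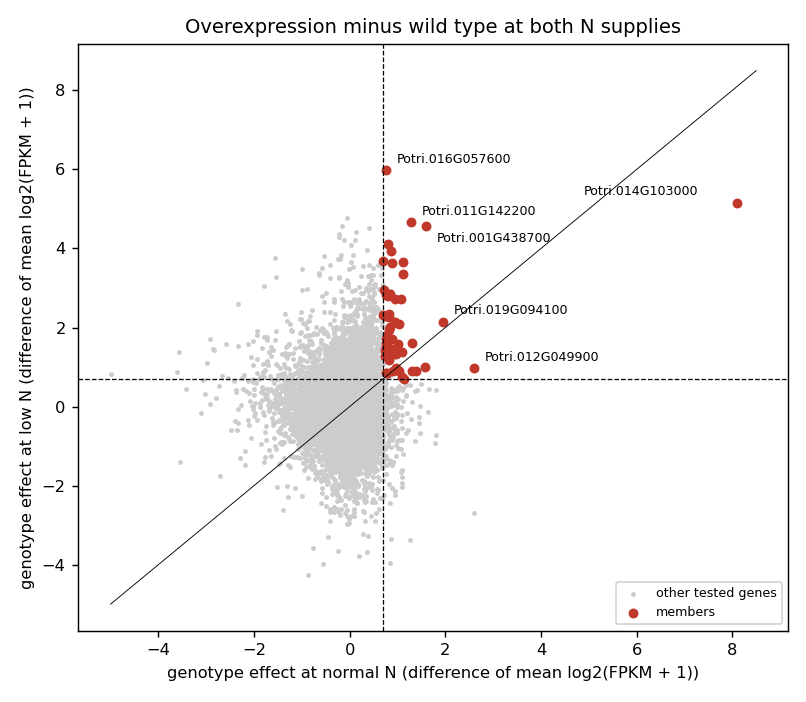
Each point is 1 of 24570 genes, with the genotype effect at normal N on the x axis and at low N on the y axis (difference of mean log2(FPKM + 1), overexpression minus wild type). Red points are the 54 members, dashed lines the thresholds of 0.7 and the solid line equal effects; 45 members lie above it. Grey points past both thresholds are the 4 genes of the left-out run.

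The libraries of the genotypes were apart for nearly all members. At normal N all 3 overexpression libraries lay above all 3 wild-type libraries in 52 members, against 14.6% of all tested genes, and at low N likewise in 52 members, against 19.2%. The exceptions were Potri.002G104450 at both N supplies, Potri.011G113800 at normal N and Potri.017G098800 at low N, where its libraries spread widely. Limma, adjusted over all tested genes, called 45 members higher at normal N, where 6.54% of tested genes were called higher, and 51 at low N, where 17.6% were. These counts describe how the threshold of the rule relates to the spread and add no evidence, because the same contrasts chose the members.

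Just 11 members had an effect of at least 1 at both N supplies. By the smaller of its effects, Potri.014G103000 was far ahead of the rest. Its wild-type libraries held 6.71, 8.14 and 7.31 FPKM at normal N, against 55.4, 51.0 and 28.2 with low N. The overexpression libraries held 2392, 2274 and 2251 FPKM at normal N, against 1557, 2310 and 1091 with low N. All overexpression libraries were thus far above all wild-type ones, and the wild-type libraries were higher at low N than at normal N without overlap. In PuHox52-OE roots at normal N it ranked 11 of all tested genes by mean FPKM, and 13275 in wild type. Whether its values in PuHox52-OE roots include transcript of the transgene was not tested, because the ID of PuHox52 is not given. This limit also applies to its effects and N response given below.

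Potri.019G094100 came next by the smaller of its effects, 1.95 at normal N against 2.15 at low N. In wild type it held 1.09, 1.22 and 1.56 FPKM at normal N, against 4.45, 3.82 and 4.83 with low N, and in PuHox52-OE roots 6.92, 8.37 and 8.16 at normal N, then 16.3, 25.9 and 27.9 with low N. The genotypes differed here by similar ratios at both N supplies, 6.07-fold and 5.35-fold, on top of higher values at low N in each genotype. Its effects at low and normal N differed by 0.20 on the log2 scale.

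Potri.001G438700 and Potri.011G142200 had low-N differences that were much larger. Potri.001G438700 held 18.1, 18.1 and 12.8 FPKM in wild type and 51.5, 49.2 and 51.5 in PuHox52-OE roots at normal N, a 3.11-fold difference of the means. At low N it held 4.35, 2.35 and 5.70 FPKM in wild type and 135.8, 137.0 and 86.1 in PuHox52-OE roots, a 28.9-fold difference. The wild-type libraries were lower and the overexpression libraries higher at low N than at normal N. Potri.011G142200 had 1.24, 1.89 and 1.32 FPKM in wild type and 5.65, 4.66 and 4.84 in PuHox52-OE roots at normal N. Its low-N values were 0.56, 0.26 and 1.32 FPKM in wild type against 48.8, 57.6 and 24.7 in PuHox52-OE roots, a 61.3-fold difference of the means and the highest ratio at low N among the 53 members not listed at 0. All its wild-type values were low, and depth was lower at low N, so the ratio is imprecise.

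Potri.014G095000 and Potri.016G057400 complete the 6 members with the largest smaller effect. Potri.014G095000 went from 5.17 ± 0.645 to 14.2 ± 0.686 FPKM between wild type and overexpression at normal N and from 2.56 ± 0.468 to 9.95 ± 2.29 at low N (mean ± SD, n = 3), which are 2.74-fold and 3.88-fold differences. Potri.016G057400 had 2.37 ± 0.184 and 6.28 ± 0.418 FPKM at normal N, while the low-N values were 3.00 ± 1.10 and 39.8 ± 8.43.

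**Figure D2:**
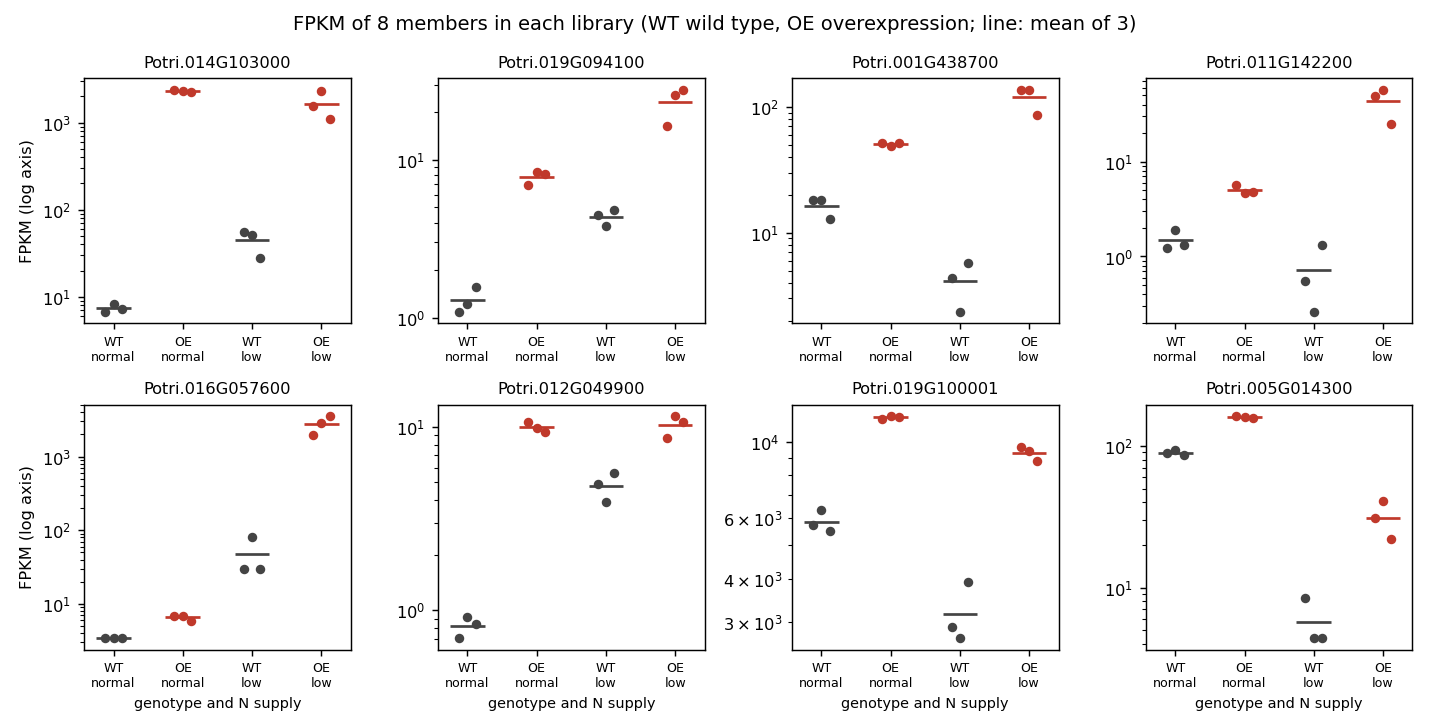
FPKM of 8 members in each library on log axes, with wild type (WT) in grey and overexpression (OE) in red; points are libraries and lines the means of 3. In every panel the overexpression points lie above the wild-type points of the same N supply; Potri.016G057600 spans from 3.40 to 3539 FPKM.

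Potri.016G057600 had the largest low-N effect. At normal N it held 3.48, 3.43 and 3.40 FPKM in wild type and 6.95, 6.95 and 5.79 in PuHox52-OE roots. At low N it held 29.4, 81.0 and 30.2 FPKM in wild type and 1987, 2820 and 3539 in PuHox52-OE roots, where it ranked 8 of all tested genes. The groups did not overlap, and its normal-N effect of 0.77 was close to the threshold. This gene and Potri.016G057400 stand next to each other in the order of tested IDs. Whether reads were shared between these neighbours in the authors' counting was not tested.

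The opposite order, a larger effect at normal N by at least 1, was found in Potri.014G103000, where the ratio went from 312-fold to 36.8-fold, and in Potri.012G049900. Potri.012G049900 had far lower levels. It held 0.70, 0.92 and 0.84 FPKM in wild type and 10.7, 9.86 and 9.44 in PuHox52-OE roots at normal N, a 12.1-fold difference. At low N wild type held 4.88, 3.88 and 5.59 FPKM and PuHox52-OE roots 8.72, 11.5 and 10.7, a 2.15-fold difference. The overexpression level was thus nearly equal at both N supplies, and the smaller effect at low N went with the higher wild-type value.

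The highest level belonged to Potri.019G100001, which ranked 2 of all tested genes in both overexpression groups and in wild type at normal N, and 3 in wild type at low N. It held 5718, 6328 and 5504 FPKM in wild type and 11664, 11875 and 11767 in PuHox52-OE roots at normal N. At low N it held 2892, 2682 and 3904 FPKM in wild type and 9659, 9386 and 8788 in PuHox52-OE roots. The ratios were 2.01 and 2.94. In all, 13 members reached a mean of 100 FPKM in PuHox52-OE roots at 1 N supply or more, and 39 held at least 5 FPKM there at both. At the other end, 2 members, Potri.005G030100 and Potri.010G042300, stayed under 1 FPKM in all 6 wild-type libraries and passed the expression filter through overexpression libraries alone.

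The threshold cut through a continuum. Just inside lay Potri.004G218400, with effects of 0.70 at normal N and 3.68 at low N, and Potri.010G173300, with 1.13 and 0.70. Just outside lay Potri.005G186800, with 0.698 and 1.35, and Potri.005G239300, with 0.697 and 3.06. The latter held 321.0 ± 43.3 and 518.1 ± 4.41 FPKM in wild type and PuHox52-OE roots at normal N, while the low-N values were 160.4 ± 43.2 and 1317 ± 36.9.

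The response to N supply was not used by the rule when it is averaged over the genotypes, and it was tested with limma on all tested genes. Of the 54 members, 29 fell at low N and 13 rose (Benjamini-Hochberg adjusted p under 0.05), while 12 did not pass. Among all tested genes 25.8% fell and 51.8% rose. The members' median was -0.48 on the log2 scale, with quartiles of -1.16 and 0.00, and that of all tested genes was 0.20. Median-of-ratios scaling took the median of all tested genes to 0.01 and their calls to 9310 risen and 9231 fallen, against 12726 and 6331 with the deposited values. Under it 36 members fell and 13 rose, with a median of -0.675. The labels name 2 sequencing companies without linking them to libraries, so a batch effect and the N supply cannot be told apart in this contrast.

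The largest falls among members with at least 5 FPKM at normal N were in Potri.005G014300, Potri.009G164000 and Potri.001G176600. Potri.005G014300 went in wild type from 89.1, 93.5 and 86.2 FPKM at normal N to 8.47, 4.41 and 4.37 at low N, and in PuHox52-OE roots from 162.5, 161.2 and 156.7 to 31.0, 40.7 and 21.9. Its average N effect was -3.08 ± 0.165 on the log2 scale (SE; limma, adjusted p = 2.56e-08). Both genotypes were lower at low N without overlap, by 15.6-fold in wild type and 5.13-fold in PuHox52-OE roots. Potri.009G164000 changed by -2.67 ± 0.154 (adjusted p = 1.43e-08 in limma), with wild-type means of 14.1 and 0.82 FPKM and overexpression means of 24.7 and 4.50 at normal and low N. Potri.001G176600 changed by -2.36 ± 0.0973 (adjusted p = 2.01e-10 in limma) and by -3.63 with a pseudocount of 0.1. It was close to 0 at low N, where wild type held 0.21 ± 0.103 FPKM and PuHox52-OE roots 1.06 ± 0.378.

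The largest rises were in Potri.016G057600, with an average N effect of 5.88 ± 0.244 on the log2 scale (SE; limma, adjusted p = 7.89e-09), in Potri.017G098800 and in Potri.011G113800. Potri.017G098800 held 3.22, 2.91 and 2.50 FPKM in wild type and 7.30, 7.21 and 7.22 in PuHox52-OE roots at normal N. At low N the libraries were far apart, with 13.1, 33.5 and 11.6 FPKM in wild type and 21.8, 36.7 and 122.4 in PuHox52-OE roots, so that the genotypes overlapped. Its N effect was 2.38 ± 0.393 (adjusted p = 0.00028 in limma). Potri.011G113800 was listed at 0 throughout wild type at normal N and at 1.91, 0 and 0.89 FPKM in PuHox52-OE roots. It reached 2.97, 2.78 and 0.94 FPKM in wild type and 9.43, 9.03 and 5.19 in PuHox52-OE roots at low N, an N effect of 1.96 ± 0.267 (adjusted p = 4.07e-05 in limma), or 4.06 with a pseudocount of 0.1.

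Among the other members named above, the average N effect was a rise for Potri.019G094100 (1.33), Potri.016G057400 (1.34), Potri.011G142200 (1.12), Potri.014G103000 (0.93) and Potri.012G049900 (0.84). It was a fall for Potri.010G173300 (-1.43), Potri.004G218400 (-0.95), Potri.014G095000 (-0.64) and Potri.019G100001 (-0.62), and limma's adjusted p was under 0.05 for all 9. Some of these averages join opposite responses of wild type and PuHox52-OE roots, given without a test. They were -2.44 and 0.54 in Potri.004G218400, 2.40 and -0.55 in Potri.014G103000, and -0.57 and 2.81 in Potri.011G142200. Normal-N and low-N libraries overlapped for Potri.014G103000 in PuHox52-OE roots and for Potri.011G142200 in wild type. Potri.012G049900 had 1.66 in wild type and 0.03 in PuHox52-OE roots. The rest of the 9 had the same direction in both genotypes. Potri.019G100001 had an adjusted p of 0.0569 after quantile normalization. Potri.001G438700 did not pass, at -0.30 ± 0.178 (limma, adjusted p = 0.145), and passed as a fall after median-of-ratios scaling (-0.51) and quantile normalization (-0.47) and without wild-type low-N replicate 3 (-0.41). It moved towards 0 without wild-type low-N replicate 2 (-0.16) and without overexpression low-N replicate 3 (-0.19).

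Split by genotype, which uses the same group means as the rule and is given without a test, the response to low N differed in direction among members and between genotypes. The wild-type mean was lower at low N than at normal N in 42 of the 54 members. All 3 wild-type low-N libraries lay below all 3 at normal N in 36 members (66.7%), against 25% of all tested genes, and above them in 8, against 48.1%. In PuHox52-OE roots the corresponding counts were 20 members lower, against 24.4% of tested genes, and 18 higher, against 48.9%. The median response was -0.97 in wild type and -0.10 in PuHox52-OE roots on the log2 scale, and over all tested genes 0.19 and 0.22.

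The members combined these responses in several ways. Lower means at low N in both genotypes were found in 26 members (48.1%), against 25.5% of tested genes. A lower mean in wild type with a higher one in PuHox52-OE roots was found in 16 (29.6%), against 11.3%, and higher means in both in 10 (18.5%), against 52.5%. Of the 27 members whose wild-type response was -1 or less, 15 stayed within 1 in PuHox52-OE roots, 10 were lower there by at least 1 as well, and 2 were higher by at least 1. In 44 of the 54 members the overexpression mean at low N was still above the wild-type mean at normal N, as it was in 57.5% of all tested genes. These shares are descriptions of a set picked for high overexpression and low wild-type means.

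**Figure D3:**
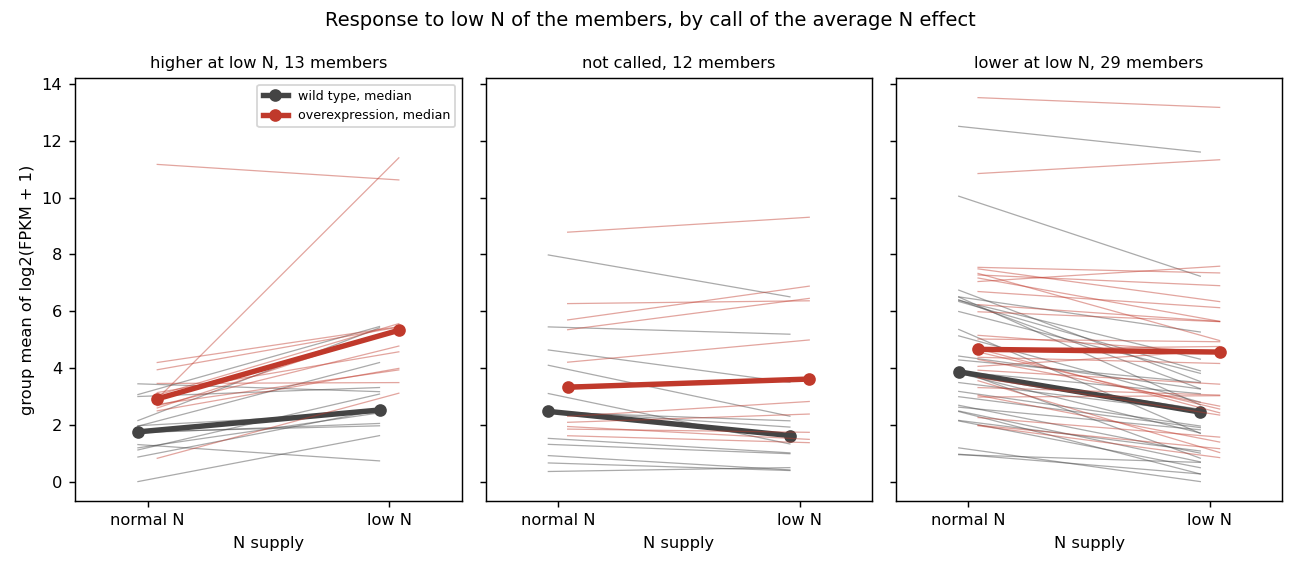
Group means of log2(FPKM + 1) at normal and low N for each member (thin lines) and the median over members (thick lines), in wild type (grey) and PuHox52-OE roots (red), split by the call of the average N effect. The panels hold 13 members that rose, 12 not called and 29 that fell; in the panel of fallen members the median of levels is lower at low N in wild type and nearly level in PuHox52-OE roots, although 24 of these 29 members had a lower overexpression mean at low N, with a median change of -0.57.

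At low N, a lower wild-type mean with a higher overexpression mean was found in 16 of the 54 members, without overlap in 7. Potri.017G114600 shows this less common combination at a high level and was chosen after its values were seen. Lower means in both genotypes were found in 26 members. Potri.017G114600 held 1019, 1180 and 992 FPKM in wild type and 1749, 1879 and 1907 in PuHox52-OE roots at normal N. At low N it held 157.1, 113.6 and 186.7 FPKM in wild type and 2814, 3057 and 2002 in PuHox52-OE roots. Wild type was thus 6.98-fold lower at low N, all overexpression libraries were higher at low N than at normal N, and the genotype ratio went from 1.74 to 17.2.

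**Figure D4:**
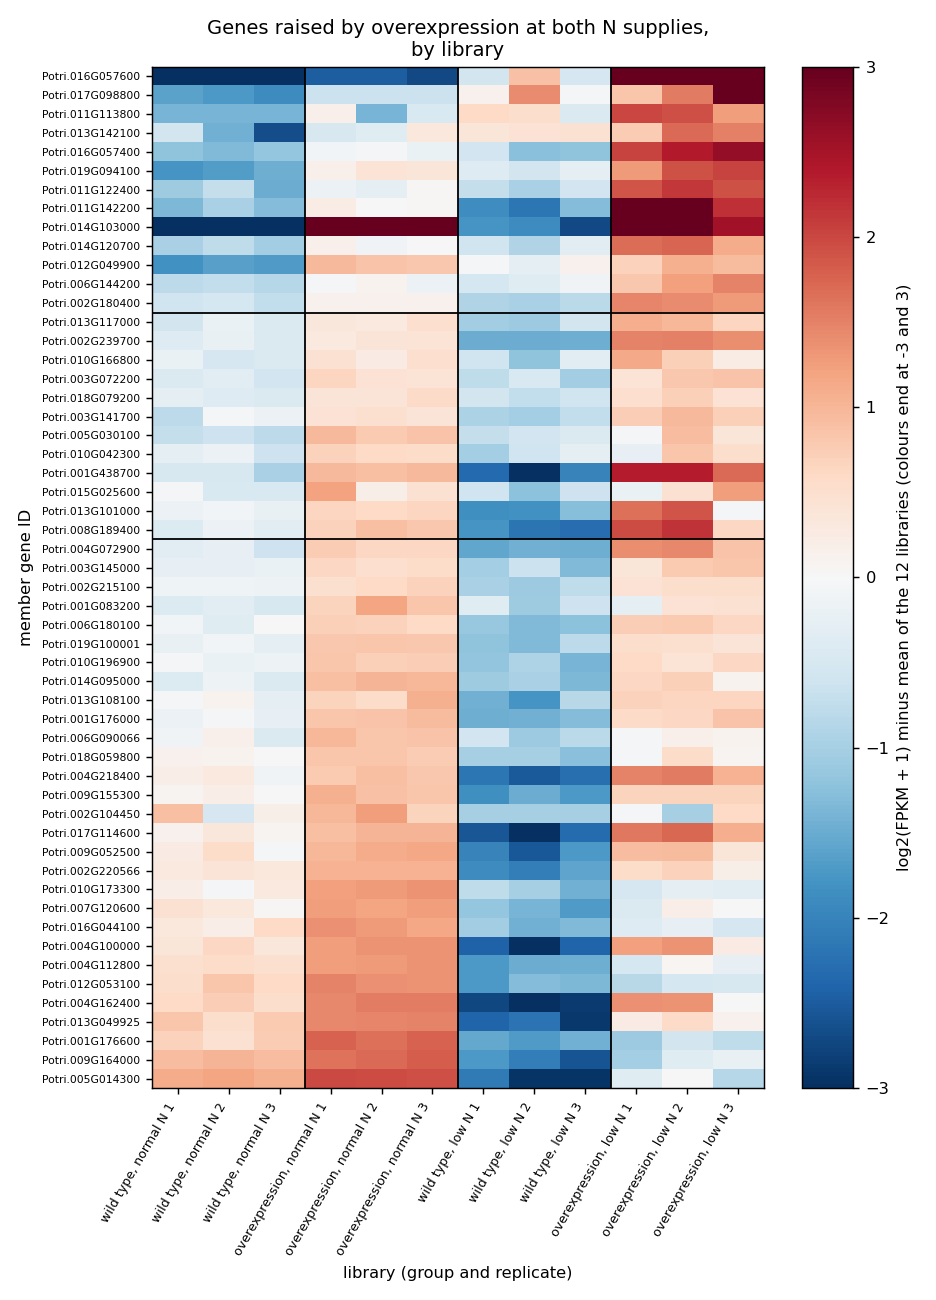
Each row is a member and each column a library; colour gives log2(FPKM + 1) minus the gene's mean over the 12 libraries, with colours ending at -3 and 3. Horizontal lines part the 13 members that rose at low N, the 12 not called and the 29 that fell, and the wild-type low-N columns are the lowest block for most of the lower 2 sets.

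Within groups members leaned towards the same highest and lowest libraries, least so in PuHox52-OE roots at normal N. The rule, based on group means, did not use the order of libraries. In PuHox52-OE roots at low N, replicate 2 was the highest library for 31 members (57.4%) and the lowest for 3 (5.56%), against 30.7% and 31.1% of all tested genes. Replicate 3 was the lowest for 27 (50%), against 41%, and replicate 1 for 24 (44.4%), against 27.9%. Replicate 3 held at most 0.7 times the mean of the other libraries in 15 members (27.8%), against 9.71% of tested genes, and replicate 1 did so in 12 (22.2%), against 5.3%. Replicate 2 was that low in 2 members (3.7%), against 6.03%. The lowest such ratio for replicate 3 was 0.279, in Potri.013G101000, with 895.2, 1047 and 271.3 FPKM, while Potri.017G098800 lay at 4.19. The order of Potri.014G103000 in these libraries, replicate 2 over 1 over 3, was shared by 19 of the other 53 members (35.8%), against 18.3% of tested genes. In wild type at normal N, replicate 2 was the highest for 34 members (63%), against 38.2%, and replicate 3 the lowest for 32 (59.3%), against 31.8%. In wild type at low N, replicate 3 was the highest for 26 (48.1%), against 33.7%, and replicate 2 the lowest for 28 (51.9%), against 37.4%. In PuHox52-OE roots at normal N the shares lay nearer those of all tested genes. Replicate 1 was the highest there for 23 (42.6%), against 37.8%, and replicate 2 for 11 (20.4%), against 30.7%. Replicate 3 was the lowest for 16 (29.6%), against 39.9%.

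The spread within groups also differed from that of all tested genes, apart from PuHox52-OE roots at normal N. The median SD of a member within its group, on the log2(FPKM + 1) scale, was 0.135 in wild type and 0.0762 in PuHox52-OE roots at normal N, while the low-N values were 0.273 and 0.321. The medians over all tested genes were 0.0974, 0.0768, 0.108 and 0.129. Members were thus more variable than the median gene at low N in both genotypes and, by a smaller margin, in wild type at normal N. In PuHox52-OE roots at normal N they were about as variable as the median gene. Depth was lower at low N, and the rule set no limit on the spread within groups. The parts of depth, expression level and selection in the spread were not tested. Wild-type low-N replicate 2 and overexpression low-N replicate 3 lay below their group means together in 24 members (44.4%) and above them together in 12 (22.2%), against 32% and 23.6% of tested genes. Of the 54 pairs of libraries from different groups, these are the pair whose deviations correlated most across genes (r = 0.213), and they are shown with that known. Both lay below in 9 of the 12 members not called for the N effect (75%, against 31.3% of tested genes not called), in 11 of the 29 that fell (37.9%, against 30%) and in 4 of the 13 that rose (30.8%, against 33.3%).

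**Figure D5:**
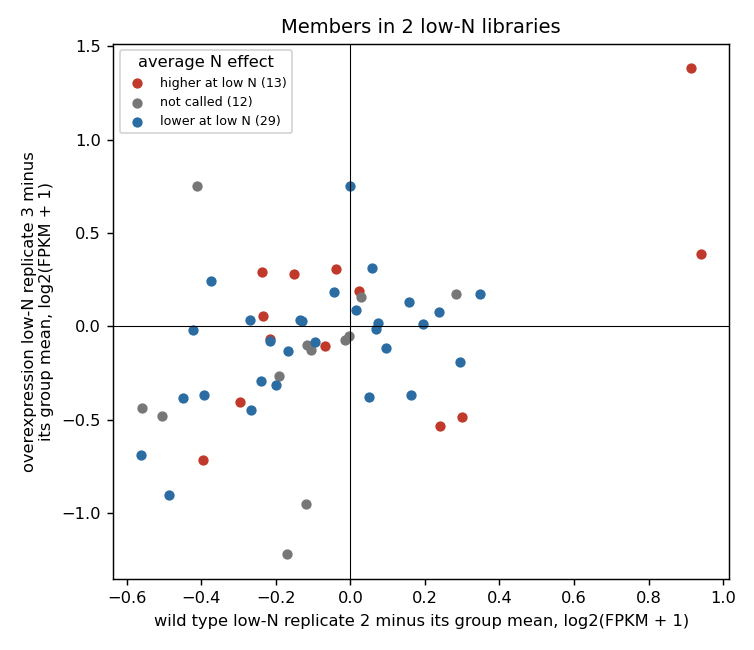
Each point is a member, placed by the deviation of wild-type low-N replicate 2 (x axis) and of overexpression low-N replicate 3 (y axis) from its group mean on the log2(FPKM + 1) scale, and coloured by the call of the average N effect. Below 0 on both axes lie 24 members, above 0 on both 12.

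By the numbers in their IDs, which in this naming scheme carry the chromosome, the members were spread over all 19 chromosomes of that scheme. Their positions in the genome of the plants studied were not examined. Chromosomes 2, 4 and 13 held the most, with 5 each (9.26%), against 7.22%, 5.57% and 4.01% of tested genes. The share of tested genes for chromosome 13 includes the 214 tested IDs of the left-out run, which the rule kept from being members. The 4 genes of that run past both thresholds are not among the 5. Apart from the adjacent pair on chromosome 16, the closest members were Potri.001G176000 and Potri.001G176600, with 3 tested genes between them. The genes between had effects of 0.01 to 0.32 at normal N and 0.15 to 1.11 at low N, which kept them out of the set. Potri.001G176000 held 90.0 ± 5.54 and 185.9 ± 7.12 FPKM in wild type and PuHox52-OE roots at normal N, while the low-N values were 37.6 ± 2.53 and 162.7 ± 18.9. Potri.001G176600 was far lower, with 4.55 ± 0.603 and 10.7 ± 0.54 FPKM at normal N.

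The mirrored rule, a genotype effect of -0.7 or less at both N supplies, found 147 genes. Of those 147 genes, 36.1% fell and 42.9% rose in the average N effect, against 53.7% and 24.1% of the members. Their median N effect was -0.01. The difference between the sets was not tested.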

How the data were processed

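The authors deposited 1 table of FPKM values for 34699 gene IDs in 12 libraries, with 1 column per library and 0 other per-sample columns. TopHat and DESeq2 appear in the submitters' processing notes, with neither a version nor a role. The genome build, the annotation and the program behind the FPKM values were not given in the sources used here. Columns were matched to samples by GEO's description field.

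Log2(FPKM + 1) was the scale of all tests, which used limma 3.58.1 under R 4.3.3 (lmFit with 1 mean per group, eBayes with trend and robust estimation, 8 residual degrees of freedom), after a filter of at least 1 FPKM in at least 3 libraries. Differences on this scale understate those of weakly expressed genes. The tested contrast was low N minus normal N averaged over the genotypes, which is orthogonal to both genotype effects, with Benjamini-Hochberg adjustment over all 24570 genes. The fit was tested on simulated data with 1 spread per gene in all groups, so differences in spread between groups were not simulated. Relative depth came from 976 genes below 0.15 FPKM in all libraries and detected in at least 3. With the inferred depths, 100% of their values came to whole fragments within a tolerance of 0.1, against 52.3% with equal depths. The same genes gave the depths, so this share is no separate check of them. Absolute depth is unknown and counting intervals are therefore left out.

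The members and lists were chosen with earlier results of these data known. Members were named for the 6 largest smaller effects, the 2 largest effects and overexpression levels at each N supply, the 3 largest falls and rises at low N, the 2 largest differences of effects each way, and the 2 genes on either side of the threshold. Any other member named was chosen after its values were seen. Gene lists by function, promoters and sequences were not analysed here because no table pairs the IDs with them.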

Additional observations from a re-analysis of the deposited data

Results flagged for a closer look

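In 7 members (13%, against 3.48% of all tested genes) all 3 wild-type low-N libraries lay below all 3 at normal N, while all 3 overexpression low-N libraries lay above all 3 at normal N. The response to low N in PuHox52-OE roots minus that in wild type, on the log2 scale, was 3.31 for Potri.017G114600, 2.98 for Potri.001G438700, 2.98 for Potri.004G218400, 2.24 for Potri.002G239700, 1.65 for Potri.004G072900, 1.54 for Potri.002G180400 and 1.04 for Potri.013G117000. This difference between the genotypes was not tested, because it is made of the group means that chose the members. Potri.002G239700 had narrow groups, with 23.4, 26.1 and 22.3 FPKM in wild type and 38.0, 40.1 and 41.2 in PuHox52-OE roots at normal N. Its low-N libraries held 10.3, 10.2 and 10.4 against 88.2, 89.4 and 82.3. Potri.004G218400 held 80.8 ± 11.4 and 131.2 ± 6.03 FPKM in wild type and PuHox52-OE roots at normal N, while the low-N values were 14.03 ± 1.79 and 193.3 ± 35.1 (mean ± SD, n = 3).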

How the results depend on the processing

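The number of members depended on the threshold, the scale and the scaling. It was 11 with a threshold of 1, 125 with a pseudocount of 0.1 and 103 after median-of-ratios scaling, with all 54 members included in both of the latter, and 86 after quantile normalization with 52 of them. With the run of Potri.013G IDs kept in it was 58, with a filter at 5 FPKM 46, and leaving out 1 library gave 52 to 70, the highest without wild-type normal-N replicate 2. Between 48 and 54 of the members were included when 1 library was left out.

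For the average N effect, members called lower numbered 26 of 46 with the 5 FPKM filter and 28 to 36 of 54 otherwise. Members called higher numbered 13 under every alternative run. Quantile normalization gave 36 lower members, with 9319 tested genes called higher and 9108 lower, against 12726 and 6331 in the main run. Median-of-ratios scaling also gave 36, with 9310 and 9231 tested genes. The larger number of members called lower thus went with more such calls over all tested genes. The median N effect was -0.714 for members and 0.231 for all tested genes with a pseudocount of 0.1, -0.675 and 0.00618 after median-of-ratios scaling. It was 0.00805 for all tested genes after quantile normalization and 0.114 without a filter. Members with the larger genotype effect at low N numbered 40 of 46 with the 5 FPKM filter and 43 to 47 otherwise. Of 320 values of named members under alternatives, 316 kept direction and side of the threshold. The exceptions were those given for Potri.001G438700 and Potri.019G100001.

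Replicate numbers did not pair the libraries: 0 of 18 same-numbered pairs had deviations correlating above 0.1 (-0.127 to 0.0942), and the best match in another group had the same number in 9 of 36 cases. The replicate block left 29 members called lower and 13 higher, and 12657 and 6319 tested genes called higher and lower.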
